A study of Mus musculus with 5 samples.

Results

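The common gamma chain cytokine receptors were examined in cultures labelled as activated CD8 T cells of one specificity, from 2 sources. The members were the genes Il2ra, Il2rb, Il2rg, Il7r, Il15ra, Il4ra, Il21r and Il9r, taken through every probe set of the array whose annotation gives exactly 1 of these symbols. This yielded 13 probe sets of 45101, for 7 of the 8 genes, out of 18193 genes with a probe set. The shared chain gene Il2rg is paired with none of the probe sets named here and was not analysed here.

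One source was the cytotoxic clone G9C8, a single clone of insulin-reactive CD8 T cells grown in vitro and represented by 3 separately frozen vials (3 arrays). The other consisted of spleen cells from 2 transgenic NOD.G9C8 mice of 4 to 8 weeks on the NOD/LtJ background, which carry the receptor of that clone (2 arrays). Both sources received the same culture, 3 days with the insulin B chain peptide at 10 µg/ml followed by 2 days of rest in IL2 at 5 IU/ml, so that every sample had been exposed to the ligand of one of these receptors before RNA was taken. The comparison asks how the receptor genes differed between the long-term clone and recently activated transgenic cells. No sort of the spleen cells is given in the labels, and the promoter of the transgene is not given in the sources used here.

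Receptors of this family bind IL2, IL4, IL7, IL9, IL15 and IL21, and each complex contains the gamma chain together with a chain of its own. In each complex a signalling chain other than the gamma chain pairs with the kinase JAK1, and the gamma chain pairs with JAK3. The complexes signal through STAT proteins, with STAT5 the main one for IL2, IL7 and IL15. The high-affinity IL2 receptor of activated T cells consists of an alpha chain (Il2ra, CD25), a beta chain (Il2rb, CD122) and the gamma chain, and the IL15 receptor uses the same beta and gamma chains. Naive and memory T cells depend on the IL7 receptor alpha chain (Il7r, CD127) for survival, and its expression is known to be lowered after activation and by IL2.

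The receptor genes went different ways. Genes of both IL2-binding chains that could be measured were higher in clone, Il2ra by a difference of 1.15 and Il2rb by 1.13 on the log2 scale, whereas Il7r was lower by a difference of -1.49 and Il21r by -0.54. Il4ra and Il15ra were not called. Il9r lay below the filter on dim probe sets and was left out of these counts. Of the 6 receptor genes tested, 2 were higher, 2 lower and 2 not called. Among all 12446 genes tested 22.0% were called higher and 21.7% lower, 43.8% in either direction. A called difference of at least 1 on the log2 scale was seen for 3 of the 6 and for 14.7% of all genes tested. The median absolute difference was 0.83 over the 6 genes and 0.39 over all genes tested.

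Values are signals of the array software on a linear scale, differences are clone minus transgenic on the log2(signal + 20) scale, and errors of signals are SDs over 3 clone or 2 transgenic arrays. A gene is represented by its brightest probe set, and a gene is called at an adjusted p under 0.05 in limma over all genes tested, after a filter that left out probe sets with a mean signal under 88.2. Median signals over all probe sets lay between 132.3 and 141.9 on the 5 arrays. Pairs of arrays within a group correlated at 0.975 to 0.981 on the log2 scale and pairs across groups at 0.919 to 0.927, over probe sets, which are not independent replicates. The number of arrays limits the precision, with a median standard error of 0.16 for a difference. In bulk RNA, fewer cells with a transcript and less transcript per cell cannot be told apart.

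**Figure D1:**
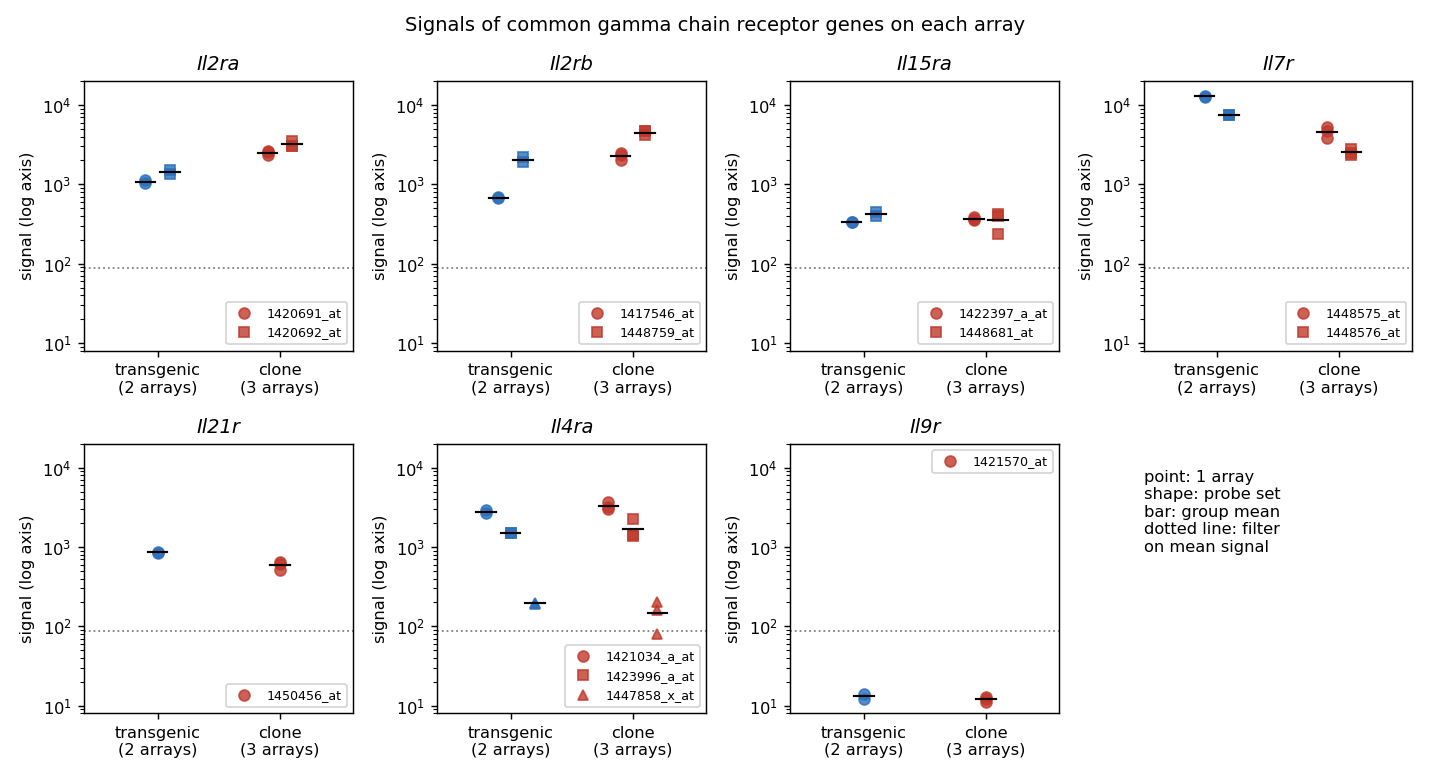
Signal of each probe set of the 7 measured receptor genes on the 2 transgenic (blue) and 3 clone (red) arrays, on a log axis. Each point is 1 array, each shape a probe set, each bar a group mean, and the dotted line the filter at a mean signal of 88.2. Clone arrays lie above transgenic arrays for both probe sets of Il2ra and of Il2rb and below them for both of Il7r and for the probe set of Il21r.

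Il2ra encodes the alpha chain that gives the IL2 receptor its high affinity and that T cells induce on activation. Its brightest probe set gave 1364.9 and 1511.6 in transgenic cells and 3511.6, 3072.5 and 3058.8 in clone cells. Every clone array lay above both transgenic arrays. The group means were 3214 ± 258 in clone and 1438 ± 104 in transgenic cells, a ratio of 2.23, and the difference was 1.15 (SE 0.10, 95% confidence interval 0.91 to 1.39, adjusted p = 5.67e-05 in limma). The other probe set of the gene, at 1131.0 and 1037.4 in transgenic and 2540.3, 2360.1 and 2596.5 in clone cells, differed by 1.19 (SE 0.10), so that the probe sets gave nearly the same size. Their within-array ratio differed between groups by 0.04, with overlapping values (exact permutation test, two-sided, p = 0.8).

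The bases ahead of the annotated start of Il2ra are shown because this gene carries one of the largest differences of the family and because its promoter region held a match to the motif of a T cell activation factor. Sequences are from RefSeq, build GRCm38.p6, at chr2:11642542-11642791 on the plus strand, printed 5′ to 3′, with the match to the NF-kappaB motif GGGANNNCC in capitals.

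Il2ra: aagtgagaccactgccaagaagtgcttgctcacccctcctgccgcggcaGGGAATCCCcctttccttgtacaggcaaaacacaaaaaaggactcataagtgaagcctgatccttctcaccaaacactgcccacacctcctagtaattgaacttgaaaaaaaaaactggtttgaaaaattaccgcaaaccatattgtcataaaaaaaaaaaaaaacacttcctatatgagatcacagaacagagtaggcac

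That match lies 201 to 193 bases before the start, and 15.83% of 32851 promoter windows of 250 bases hold at least 1 such match on either strand. None of the other motifs searched, a STAT motif (TTCNNNGAA), an ETS motif (ACAGGAAG), a RUNX motif (TGTGGT), a T-box motif (AGGTGTGA) and a forkhead motif (TGTTTAC), matched in this window. A match is a description of letters and not a binding site. These motifs were chosen with the differences already known.

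Il2rb encodes the signalling chain that the IL2 and IL15 receptors share. The brighter of its probe sets gave 1909.9 and 2178.6 for the 2 mice and 4138.1, 4637.7 and 4703.6 for the 3 vials, again with no overlap. The means were 4493 ± 309 against 2044 ± 190, a ratio of 2.20, with a difference of 1.13 (SE 0.10, interval 0.90 to 1.36, adjusted p = 5.56e-05 in limma). The dimmer probe set gave 662.8 and 688.9 in transgenic and 2038.4, 2493.7 and 2324.5 in clone cells, a ratio of means of 3.38 and a difference of 1.72 (SE 0.12, adjusted p = 1.31e-05 in the fit of all probe sets). Both probe sets thus rose, but by unequal amounts. The within-array ratio of the dimmer over the brighter probe set differed by 0.59 between groups without overlap (exact permutation p = 0.1, the smallest that 3 against 2 arrays allow, and 0.6 after adjustment over 6 such pairs). What the probe sets cover in the transcript was not analysed here.

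For the brightest probe sets, the within-array log2 ratio of Il2ra over Il2rb differed by 0.02 between the groups, with an SD of 0.21 over the clone arrays. The dimmer probe set of Il2rb, at 1.72, moved further than either probe set of Il2ra, at 1.15 and 1.19, so that whether both genes changed alike depends on the probe set. This ratio, and those below, were taken after the values were seen, in place of ratios over the shared chain gene.

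Il15ra encodes the alpha chain that holds IL15 and presents it to cells with the beta and gamma chains. Signals of its brightest probe set were 450.8 and 399.8 in transgenic cells and 424.5, 401.2 and 239.2 in clone cells. The third clone array lay apart from the other clone arrays and the groups overlapped. The difference was -0.29 (SE 0.24, interval -0.83 to 0.26, adjusted p = 0.367 in limma), and without the third clone array it was -0.04. The other probe set was more even, with 336.8 and 335.4 in transgenic and 368.9, 356.7 and 385.1 in clone cells, a difference of 0.13 (interval -0.18 to 0.45). The probe sets thus pointed in opposite directions, neither of them called. Il15ra lies next to Il2ra on chromosome 2, with no protein-coding gene between them in the RefSeq gene table of GRCm38.p6. Of these neighbours, Il2ra was called and Il15ra was not, and whether their differences differed was not tested.

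Il7r, the alpha chain of the IL7 receptor and of the receptor for TSLP, showed the largest difference of the family among brightest probe sets, although the dimmer probe set of Il2rb moved further in the other direction. Its brightest probe set gave 13052.7 and 12569.5 on the transgenic arrays, against 3881.4, 5218.9 and 4682.9 on the clone arrays. The highest clone array thus remained far below the lower transgenic array. The means were 4594 ± 673 in clone and 12811 ± 342 in transgenic cells, 2.79 times as high in the latter, with a difference of -1.49 (SE 0.12, interval -1.77 to -1.20, adjusted p = 3.65e-05 in limma). The other probe set gave 7457.9 and 7432.7 against 2312.4, 2749.2 and 2510.7, a difference of -1.56 (SE 0.10, adjusted p = 9.59e-06 in the fit of all probe sets). The lowest clone signals, 3881.4 and 2312.4, lay far above the filter level of 88.2.

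Sequence ahead of Il7r is shown because the gene moved against Il2ra and Il2rb and because GABP, a factor of the ETS family, is known to act on it. The RefSeq start used for the window lies inside the annotated gene span, so the bases outside that span, chr15:9529942-9530126 on the minus strand of GRCm38.p6, are given on the first line, and a stretch of 30 bases around a further match, chr15:9529906-9529935, on the second. Capitals mark a match to the STAT motif TTCNNNGAA, overlapping one to the NF-kappaB motif, on the first line and a reverse-strand match to the ETS motif ACAGGAAG on the second.

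Il7r: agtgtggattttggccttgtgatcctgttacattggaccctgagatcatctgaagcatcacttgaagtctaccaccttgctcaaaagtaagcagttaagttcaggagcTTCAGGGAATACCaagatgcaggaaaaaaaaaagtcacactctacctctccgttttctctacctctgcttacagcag
Il7r near the start: ttttgctcagaCTTCCTGTttctggcactt

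The STAT match lies 142 to 134 bases before that start, the overlapping NF-kappaB match 138 to 130 bases and the ETS match 48 to 41 bases before it. Among the 32851 windows, 7.02% hold the STAT motif and 2.9% the ETS motif. No promoter of Il2rb was printed.

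Within each array, Il2rb rose relative to Il7r by 2.61 on the log2 scale between transgenic and clone cells, with no overlap between the groups (exact permutation p = 0.1, the smallest possible, 0.15 after adjustment over 3 ratios). The ratio of Il2ra over Il7r differed by 2.63 without overlap (exact permutation p = 0.1). An array-wide scaling error would cancel in these ratios. Each sets a gene higher on every clone array over one lower on every clone array. The lack of overlap and the permutation p thus follow from those values and add no separate evidence.

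Il21r encodes the receptor chain for IL21, a cytokine of CD4 helper cells that sustains CD8 T cell responses. Its one probe set gave 849.8 and 871.7 in transgenic cells and 506.0, 610.6 and 653.7 in clone cells, so that the groups did not overlap. The means were 590 ± 76.0 against 861 ± 15.5, with a difference of -0.54 (SE 0.14, interval -0.85 to -0.22, adjusted p = 0.0136 in limma). This call was lost without the first transgenic array (-0.56, adjusted p = 0.0696) and without the second (-0.52, adjusted p = 0.0828). The promoter window of Il21r held a forkhead match (TGTTTAC), which 3.17% of windows hold. It overlapped a reverse-strand match to the RUNX motif, which 14.05% of windows hold. The start used for this window also lies inside the annotated gene span, and so does the stretch shown. This stretch is given for a further member with a lower signal in clone, at chr7:125603380-125603409 on the plus strand of GRCm38.p6. The forkhead match is in capitals.

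Il21r: gggcggggcacTGTTTACcacatcccctcc

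Il4ra, the IL4-binding chain that also serves the IL13 receptor, adjoins Il21r on chromosome 7 with no gene between them in the RefSeq table. The brightest of its 3 probe sets gave 2911.7 and 2684.2 in transgenic cells, against 3209.3, 3681.2 and 3005.0 in the clone. The clone arrays lay above the transgenic ones, yet the difference of 0.23 (SE 0.11, interval -0.02 to 0.48) was not called (adjusted p = 0.118 in limma). The groups did not overlap for 5 of the 6 receptor genes tested, beside 64.5% of all genes. The second probe set of Il4ra differed by 0.14 (interval -0.31 to 0.60), with the second clone array high at 2267.2 against 1392.7 and 1412.2 on the others, and without that array it differed by -0.09. The third, of a type marked as cross-hybridizing, was dim and differed by -0.43 (interval -1.16 to 0.30). Il4ra is thus not shown to differ, and the interval of its brightest probe set leaves out a change of 1 on the log2 scale.

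Il9r encodes the IL9-binding chain, known from mast cells and helper T cells. Its probe set gave 12.3 and 13.9 in transgenic cells and 11.3, 12.1 and 13.0 in clone cells, at the 9.839th percentile of mean signal. The groups overlapped. It failed the filter, and in the fit without a filter it differed by -0.04 (interval -0.44 to 0.35, adjusted p = 0.883 in limma). Detection calls do not accompany the signals, so it is unknown whether this signal exceeded background.

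**Figure D2:**
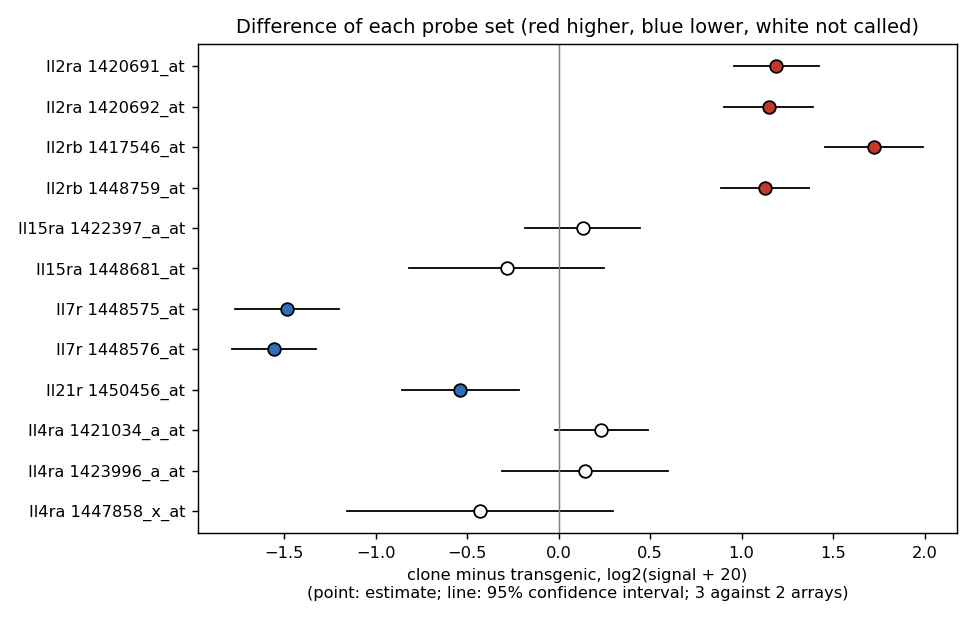
Clone minus transgenic difference of the 12 receptor probe sets that passed the filter, on the log2(signal + 20) scale, with 95% confidence intervals of the fit of all probe sets. Of the 12, 4 are called higher (red), 3 lower (blue) and 5 not called (white). The probe sets of Il2ra agree at 1.15 and 1.19, those of Il2rb lie apart at 1.13 and 1.72, and those of Il15ra and of Il4ra fall on both sides of 0.

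Counted by probe set, 7 of 12 were called, beside 41.9% of all 27022 probe sets tested. All 7 belonged to the 4 called genes. No probe set of any receptor gene was called against the direction of its brightest one.

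Genes whose profile over the 5 arrays was most like that of each of the 3 receptor genes with the largest differences were sought by Euclidean distance of the log2 values, each set to its transgenic mean. For Il7r they were Samd9l (distance 0.08, difference -1.47), Nsd3 (0.09, -1.49) and Tmem141 (0.13, -1.47). For Il2ra they were Cnpy2 (0.12, difference 1.08), Ndufa5 (0.13, 1.15) and Tpgs2 (0.13, 1.16). For Il2rb they were C030006K11Rik (0.10, difference 1.13), Adi1 (0.11, 1.10) and S100a6 (0.14, 1.08). The distance is taken over 5 arrays in 2 groups, so that a group difference of like size weighs most in it. None of these genes is another receptor of the family.

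The ligands of these receptors were mostly dim. Of the 6 ligand genes, Il4 alone passed the filter, with 90.0 and 80.0 on the transgenic and 163.9, 144.0 and 211.4 on the clone arrays (difference 0.87, SE 0.24, adjusted p = 0.0192 in limma). That signal lies close to the filter level, and the call was lost without the third clone array, without either transgenic array and with the replicate block, and the gene fell out under a filter at the 60th percentile. Il9 lay between 22.2 and 107.1 and the other 4, Il2, Il7, Il15 and Il21, at 95.1 or less on every array. Of the partner chains, Crlf2, which joins Il7r in the TSLP receptor, differed by -0.16 (interval -0.46 to 0.15), and Il13ra2, a decoy chain for IL13, by 0.10 (interval -0.47 to 0.67). Of the 3 partner chains limma called 0, and 0 had an unadjusted p under 0.05, beside 43.8% of all genes called.

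Kinases, STAT proteins and adaptors downstream were called in 12 of 16 genes tested, 8 lower and 4 higher, beside 43.8% of all genes called, with a median difference of -0.41 beside -0.01 over all genes tested. Jak1 encodes the kinase of the signalling chain beside the gamma chain. It gave 12165.5 and 12217.5 on the transgenic and 3339.3, 4147.4 and 3445.0 on the clone arrays. The difference was -1.74 (SE 0.11, adjusted p = 7.39e-06 in limma). The groups were far apart. Jak3, the kinase of the gamma chain, was lower too, by a smaller difference of -0.59 (adjusted p = 0.00200), as was Stat5b (-0.99), while Stat5a was not called by its brighter probe set (-0.33, interval -0.75 to 0.08) and was called lower by the other (-1.28); these 3 are named after their values were seen. The regulatory subunit gene Pik3r1 of PI3 kinase was lower (-1.52). Opposite to these, the docking protein gene Gab2, which links cytokine receptors to PI3 kinase, rose from 80.7 and 107.7 on the transgenic arrays to 1250.9, 1119.6 and 1185.6 on the clone arrays (difference 3.41, SE 0.15, adjusted p = 1.27e-06). Its other probe sets rose as well, by as little as 0.68. Irs2, an adaptor of the IL4 receptor, rose by a difference of 2.38.

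Feedback inhibitors were divided by gene. Of 11 tested, 6 were higher, 4 lower and 1 not called, beside 22.0% of all genes called higher and 21.7% lower, with a median of 0.51. Socs2 gave 805.0 and 749.7 on the transgenic and 7658.8, 6838.2 and 7054.3 on the clone arrays, a difference of 3.17 (SE 0.09, adjusted p = 1.86e-07 in limma), although its 5 tested probe sets ranged from 0.27 to 4.38. Cish, encoding an inhibitor that STAT5 induces, gave 866.7 and 951.0 against 4672.2, 2898.7 and 3065.3 (difference 1.91, adjusted p = 0.000101). Both of these lay above on every clone array. Socs3, an inhibitor that acts on receptors of the IL6 family, was lower, with 2495.3 and 2713.3 against 412.4, 550.6 and 280.5 (difference -2.64, adjusted p = 5.02e-05), and Socs1, an inhibitor of JAK kinases, was lower by a difference of -0.95.

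STAT5 target genes did not move as one. Of 15 tested, which include Cish and Socs2, 5 were higher, 2 lower and 8 not called, 46.7% called beside 43.8% of all genes, with a median of 0.19. Besides Cish and Socs2, the lymphotoxin gene Lta was higher (2.29, adjusted p = 2.57e-05 in limma), whereas Pim2, a survival kinase gene, was lower, with 3288.8 and 3802.7 on the transgenic and 974.9, 1067.3 and 1033.0 on the clone arrays (-1.77, adjusted p = 6.53e-06). Named after their values were seen, Pim1 differed by 0.16 and was not called. Ccnd3, named likewise, was not called by its brightest probe set (0.01), whereas 2 of its 3 tested probe sets were called lower, down to -1.40.

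**Figure D3:**
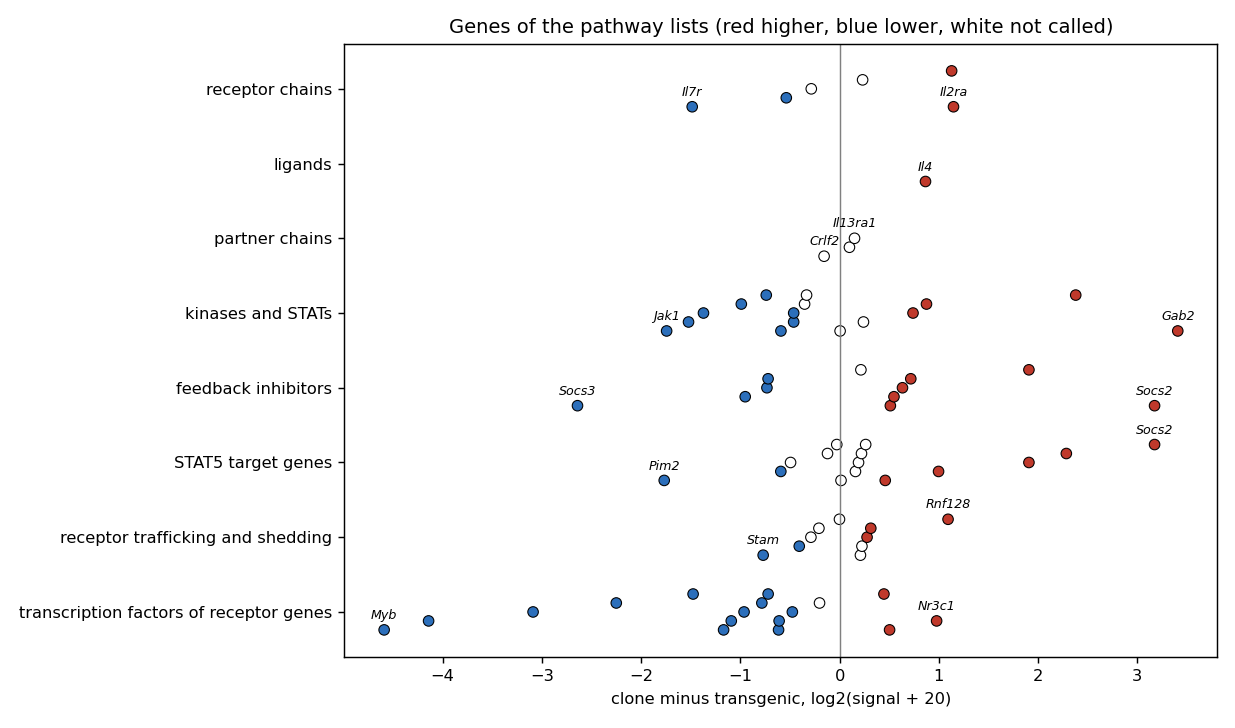
Clone minus transgenic difference of every tested gene of the receptor family and of 7 pathway lists, 1 point a gene, on the log2(signal + 20) scale. Red points are called higher, blue lower and white not called, and the genes at the ends of each list are named. Socs2 (3.17) and Gab2 (3.41) lie farthest to the right, and the transcription factor list extends to Myb at -4.59.

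Genes for receptor trafficking and shedding were called in 5 of 10, with 3 higher and 2 lower and a median of 0.10, a share close to the 43.8% of all genes called. Rnf128, encoding the ubiquitin ligase GRAIL, was higher (1.09, adjusted p = 0.00197 in limma), as was Hgs of the endosomal sorting complex (0.31). Its partner Stam was lower (-0.77) and so was the protease gene Furin (-0.41). The sheddase gene Adam10, named after its values were seen, was not called by its brightest probe set (0.21), whereas 2 of its 3 tested probe sets were called lower, down to -1.70. This count fell to 2 without the first or the third clone array, without either transgenic array and with the replicate block.

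Transcription factors known to act on receptor genes were called in 16 of 17, with 13 lower and 3 higher and a median of -0.78, beside 43.8% of all genes called and 21.7% called lower. The largest differences were those of Myb (-4.59, adjusted p = 3.04e-06 in limma), Eomes (-4.14), Klf2 (-3.09) and Irf1 (-2.25). Eomes, a T-box factor known to raise Il2rb, gave 1515.8 and 1700.2 on the transgenic and 62.8, 90.3 and 65.3 on the clone arrays, a clone mean of 72.8 below the filter level, so that the gene was tested through its transgenic signal and the size of its difference is uncertain. Il2rb itself was higher on the clone arrays. The following were named after their values were seen. The related factor gene Tbx21 was higher in clone (0.50, adjusted p = 0.0218). Of factors known to raise Il7r, Foxo1 gave 3490.2 and 3098.6 against 941.9, 1794.1 and 1804.5 (difference -1.17, adjusted p = 0.00610), Ets1 differed by -1.48 and Gabpa by -0.48, all lower. The glucocorticoid receptor gene Nr3c1, also known to raise Il7r, was higher (0.98). Gfi1, a repressor of Il7r, was higher by 0.45 (adjusted p = 0.0168). Foxp1, of the same list, was lower (-1.09), with all 8 of its tested probe sets called lower. Runx1 was the uncalled gene (-0.20), but its probe sets disagreed: 3 of the 5 tested were called higher, by as much as 2.51. Whether any of these factors bears on Il7r or Il2rb in these cells was not tested.

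Other cells of a spleen culture could contribute receptor transcripts, and their markers were read beside these values. The T cell markers were bright in both groups, with summed signals of 62389 to 71303 over 8 genes in clone and 83737 to 92681 in transgenic cells, and 5 of the 8 were called lower in clone, beside 21.7% of all genes. Thy1 did not pass the test (0.09), nor did Cd3e (0.19), whereas Cd3d was lower by a difference of -0.49 and Cd8a by -0.68. The largest differences of that list, named after their values were seen, were those of the adhesion receptor gene Cd2 (-1.75) and of Cd247 (-1.37), which encodes the zeta chain of the T cell receptor complex. Cd4 stayed between 32.1 and 50.6 and Foxp3, the marker of regulatory T cells that carry Il2ra, between 85.3 and 148.7, with a difference of -0.16 that was not called. Of the 3 markers of CD4 and regulatory T cells that were tested, 1 was lower, Ikzf2 (-0.60), the brightest, and the next, Zbtb7b, was not called (0.07).

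The 12 myeloid markers summed to 5339 to 5909 in clone and 13145 to 14556 in transgenic cells, where Ctss and Lyz2 were brightest, and 5 of 8 tested were called lower in clone, again beside 21.7% of all genes. Lyz2 gave 3496.8 and 5548.8 on the transgenic and 237.1 to 326.9 on the clone arrays. Named after their values were seen, Cd68 (0.50) and Fcgr1 (0.34) lay the other way, higher on every clone array, and were not called. Cd14, named likewise and among the 5 called lower, passed the filter only through its transgenic signal, at 304.0 and 487.5 against 57.2 or less in clone. The 6 dendritic cell markers summed to 687 to 879 and 7523 to 8422, most of it Ccr7, which naive T cells also express, and 3 of 5 tested were lower in clone, Itgax among them (-2.07). Among the 9 B cell markers, with sums of 1245 to 1497 and 1824 to 1985, 1 of 8 tested was called lower, Cd79b, and 1 higher, Ebf1, named after its values were seen. Each passed the filter only through the group where it was high, Cd79b with 594.0 and 654.5 in transgenic cells against 46.0 or less in clone, and Ebf1 with 138.0 to 252.6 in clone against 25.3 or less. Cd22, the brightest, was not called (0.16). The 4 natural killer markers summed to 2739 to 4123 in clone and 748 to 1383 in transgenic cells. This was through Klrc1, which activated CD8 T cells also express. Klre1, next in signal, lay the other way, at 69.9 to 106.1 in clone against 133.7 and 179.2, and was not called (-0.72). Ncr1, which defines natural killer cells, stayed at 55.1 to 91.0 in both groups. Mast cell and basophil markers, 5 genes, summed to 228 to 380 and 1095 to 1984 through Kit, with Cpa3 at 60.3 to 152.6, and the 3 erythroid markers, led by Hba-a1 at 45.9 to 134.8, to 101 to 229 and 151 to 172. Of these lists, 1 of 2 natural killer markers tested was higher, 1 of 3 mast cell markers lower and 0 of 1 erythroid markers called. The called mast cell marker, Kit, passed the filter only through its transgenic signal, at 1581.2 and 653.2 against 52.8 or less in clone. The T cell, myeloid, dendritic and mast cell sums thus lay on the same side as Il7r and Il21r. The B cell sum did so through Cd79b, and 6 of the 8 B cell markers tested were not called. The CD4 and regulatory T cell sum (2949 to 3209 against 3464 to 5762) did so through Ikzf2, which makes up most of it. Cd4, Foxp3 and Zbtb7b overlapped between the groups, and Cd40lg, which failed the filter, was lower on every clone array. The natural killer sum, through Klrc1 alone of its tested markers, lay on the same side as Il2ra and Il2rb. The part of such cells in the receptor differences was not tested.

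**Figure D4:**
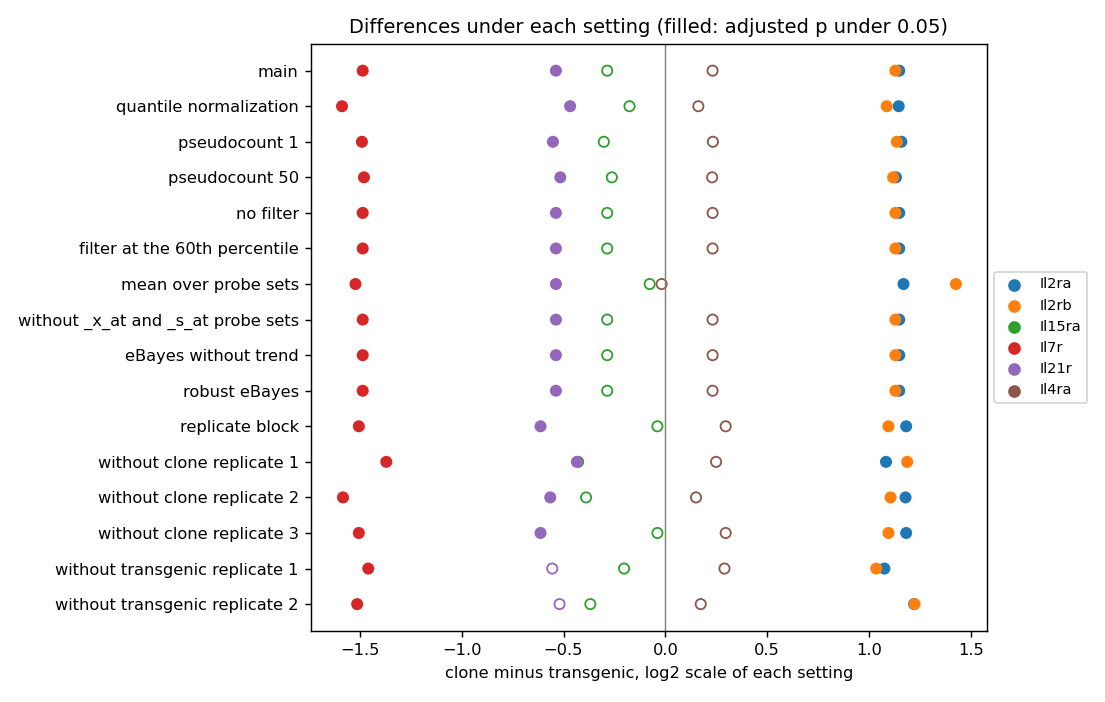
Clone minus transgenic difference of the 6 tested receptor genes under the setting used in the text and 15 alternatives, on the log2 scale of each setting, with filled points at an adjusted p under 0.05. Il2ra, Il2rb and Il7r remain filled under each of these settings. Il21r is open without either transgenic array, and Il4ra falls just below 0 with the mean over probe sets.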

How the data were processed

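Each of 5 cultures gave 1 one-colour Affymetrix mouse array, for which 8 µg of RNA was labelled with biotin, per the labels' protocols. Intensity values, 1 per probe set and linear, were deposited as given by the software GCOS (version not stated), per the submitters' processing notes. The 2% trimmed mean is 500.0 on each array, so values were used as deposited. Probe sets were named through the platform annotation where it gives 1 symbol.

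Controls (64 probe sets) were left out. Values were taken as log2(signal + 20), which understates differences of dim genes. Probe sets under a mean signal of 88.2 (the 40th percentile) were left out, the brightest represented its gene, and limma 3.58.1 under R 4.3.3 compared the groups (lmFit, eBayes with trend, two-sided, 3 residual degrees of freedom, Benjamini-Hochberg over 12446 genes). A further fit tested 27022 probe sets singly. The fits were checked on simulated data. Vials of 1 clone and 2 mice are the replicates, so p-values cover only their spread.

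The members, gene lists and tests were chosen with earlier results of these data known. Named genes are every receptor gene, the 4 or fewer called genes that differ most in each pathway list (or, with under 2 called, also the brightest 2 uncalled), the brightest 2 and the defining genes of each marker list, and the 3 nearest profiles; others are marked as named after their values were seen. Of 146 list genes, 11 had no probe set named here and were not analysed here. Alternatives were another normalization, pseudocount, filter, probe set rule and variance model, a block for the replicate number, and leaving out each array. Versions were Python 3.11.15, pandas 2.3.3, numpy 2.4.6, scipy 1.17.1 and matplotlib 3.10.9.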

Additional observations from a re-analysis of the deposited data

How the results depend on the processing

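Under the 15 alternatives Il2ra (1.08 to 1.22), Il2rb (1.04 to 1.43) and Il7r (-1.59 to -1.37) kept direction and call in limma, with a highest adjusted p of 0.00156. Il15ra stayed negative and uncalled (-0.43 to -0.04). Il21r lost its call without the first or the second transgenic array, where it differed by -0.56 and -0.52. Over all arrays left out its differences ranged from -0.61 to -0.43. Il4ra turned to -0.0184 (adjusted p = 0.94) with the mean over probe sets. Its second probe set ranged from -0.0851 (without the second clone array) to 0.2625 over the arrays left out. Receptor genes called numbered 3 to 4 over the arrays left out. Genes called lower numbered 1768 to 2740 over the arrays left out, with 1768 without the first transgenic array, and genes called higher 1895 to 2752; that array left 1 transgenic sample, assumed to vary like the clone arrays. Among the pathway lists, the ligand and trafficking counts moved by over 1.5 times. With the replicate number as a block, in which the third clone array has no partner and drops out of the estimate, 4 receptor genes were called, with Il7r at -1.50 and Il21r at -0.61. The labels do not say that a number marks a shared batch, and deviations of same-numbered arrays correlated at -0.03 and -0.08. Ratios over Il2rg were not run. Signals of Il9r and most ligands are too dim to show a difference at these settings.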
